A study of Mus musculus with 4 samples.

Results

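The genes described here are 10 transcripts of the integrated stress response in RAW264.7 cells, a virus-transformed mouse macrophage line. They are the transcription factor genes Atf4, Atf5, Atf3 and Ddit3 (which encodes CHOP), the chromatin protein gene Nupr1, and the effector genes Trib3, Chac1, Ppp1r15a, Ddit4 and Sesn2. They were chosen by name, with their change between the groups of this series already known, from 40213 gene symbols with a value, and all 10 were found. Their differences between the groups are therefore given as a description, with no test. The series compared 2 libraries of cells kept for 48 h with a material labelled Gel with 2 libraries of cells kept for 48 h with a material labelled CuNZ@Gel. The labels do not spell out CuNZ, and their treatment text mentions CuNZ@Gel alone, so the Gel group rests on the sample titles. All libraries came from 1 cell line, and the labels do not tell whether replicates 1 and 2 of a group were grown separately. The p-values below therefore cover only how far these libraries vary, and that variation may be technical.

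The integrated stress response starts with kinases that phosphorylate the translation initiation factor eIF2 when amino acids or heme run short, when unfolded protein builds up in the endoplasmic reticulum, or when double-stranded RNA appears. Most translation then slows, while the mRNA of ATF4 is translated more because of short upstream reading frames. ATF4 pairs with C/EBP family proteins on composite DNA elements and switches on genes of amino acid supply, of feedback and, with CHOP, of cell death. Because ATF4 is controlled largely at translation, the level of its mRNA and the activity of the protein can differ.

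Promoter sequences are shown first, because these genes are known to be reached through short DNA elements. The sequences are from RefSeq on build GRCm38.p6, whereas the deposited values were made on GRCm39, so these coordinates belong to the first build only. All 10 genes had a promoter window of 300 bases, which runs from 250 bases before the transcription start to 50 bases after it, and Atf5 had 2 windows. The composite C/EBP-ATF element was searched as TGATGNAA on both strands. Matches were found for 4 genes: Atf3, Nupr1 and Chac1 upstream of the start, and Trib3 just after it. Of all 27025 genes with a window, 4.51% held a match, and of the 9062 tested genes with a window 2.85% did. The following stretches are the 250 bases upstream of the start for Atf3 (chr1:191183334-191183583, minus strand), Nupr1 (chr7:126625471-126625720, minus strand) and Chac1 (chr2:119350992-119351241, plus strand). The 30 bases around the match are given for Trib3 (chr2:152344028-152344057, minus strand). Each is written 5′ to 3′ on the strand of the gene with the match in capitals.
Atf3: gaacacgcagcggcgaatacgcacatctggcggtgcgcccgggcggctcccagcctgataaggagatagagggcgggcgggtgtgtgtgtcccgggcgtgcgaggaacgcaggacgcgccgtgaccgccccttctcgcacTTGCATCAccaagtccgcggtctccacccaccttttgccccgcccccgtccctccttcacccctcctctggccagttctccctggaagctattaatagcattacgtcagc
Nupr1: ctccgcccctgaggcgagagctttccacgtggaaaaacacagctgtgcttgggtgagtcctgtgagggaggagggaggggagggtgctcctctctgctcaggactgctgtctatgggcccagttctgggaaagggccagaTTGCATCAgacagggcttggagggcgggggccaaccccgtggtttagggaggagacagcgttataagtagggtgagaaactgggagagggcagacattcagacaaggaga
Chac1: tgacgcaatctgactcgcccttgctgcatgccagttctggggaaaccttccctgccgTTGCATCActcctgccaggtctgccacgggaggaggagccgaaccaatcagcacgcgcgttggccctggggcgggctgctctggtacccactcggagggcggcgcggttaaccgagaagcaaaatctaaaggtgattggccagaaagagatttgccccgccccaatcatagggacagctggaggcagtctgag
Trib3: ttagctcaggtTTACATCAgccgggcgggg

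In Atf3, Nupr1 and Chac1 the match read the same 8 letters on the gene's own strand, TTGCATCA, and lay 110, 110 and 193 bases before the start. In Trib3 it read TTACATCA and began at base 15 of the transcript. The cAMP response element, searched as the palindrome TGACGTCA, had a match in 1 of the 10 genes, Ppp1r15a, 12 bases before the start. Of all genes with a window 2.03% held this palindrome, and of the tested genes with a window 3.74% did. The 250 bases upstream of Ppp1r15a (chr7:45526269-45526518, minus strand) are shown with that match in capitals.
Ppp1r15a: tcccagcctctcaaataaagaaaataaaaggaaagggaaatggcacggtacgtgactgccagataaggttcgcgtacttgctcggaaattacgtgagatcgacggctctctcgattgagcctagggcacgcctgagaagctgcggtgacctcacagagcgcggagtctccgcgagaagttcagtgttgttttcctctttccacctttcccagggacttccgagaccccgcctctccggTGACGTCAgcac
The endoplasmic reticulum stress element, searched on both strands as CCAAT and CCACG with 9 bases between them, had no match in the 10 genes and was found in 0.137% of all genes with a window. The composite and the palindrome cannot match the same 8 bases, and partial overlaps between motifs were allowed. A match describes letters in a window and is no measure of binding.

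**Figure D1:**
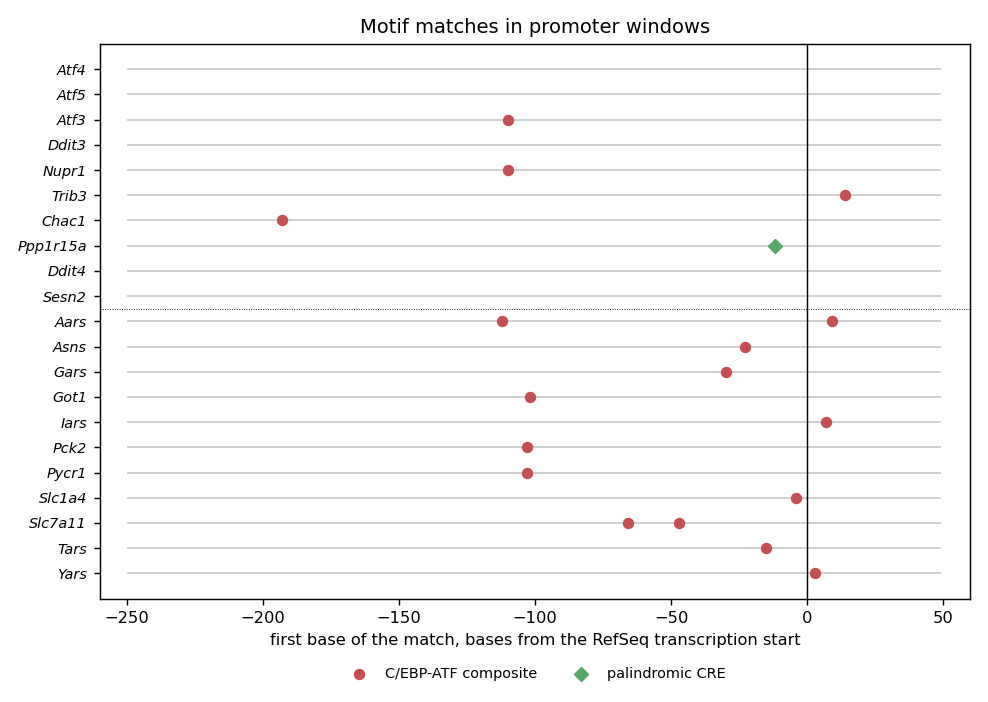
Position of motif matches in promoter windows, in bases from the RefSeq transcription start; the 10 stress response genes stand above the dotted line, and below it are the genes of amino acid supply and tRNA charging that hold a match. Circles mark the C/EBP-ATF composite and the diamond the palindromic cAMP response element; no match to the endoplasmic reticulum stress element fell in these genes. Of the 10 genes 5 show a match of either kind.

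Levels are given as scaled CPM, which is CPM (read counts scaled to a common library total) divided by 1 further factor per library, as read from the deposited log2(scaled CPM + 1) values. The 10 genes held 25628 and 22019 reads in Gel replicates 1 and 2, and 7377 and 7966 in CuNZ@Gel replicates 1 and 2. Their summed level was 1858 and 1716 scaled CPM in Gel and 465 and 506 in CuNZ@Gel. Atf4 made up between 44.5% and 46.1% of that sum in every library. Each of the 10 genes was lower in both CuNZ@Gel libraries than in both Gel libraries, an arrangement that 43.5% of the 11588 tested genes showed. In either direction, groups did not overlap for 83.2% of tested genes. The mean was at least 2-fold lower for 7 of the 10 genes, against 8.08% of tested genes, and at least 4-fold lower for 5, against 1.28%. Nothing is read from these counts, because this contrast chose the genes. In whole-culture RNA, fewer cells expressing a gene and less RNA per cell cannot be told apart.

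**Figure D2:**
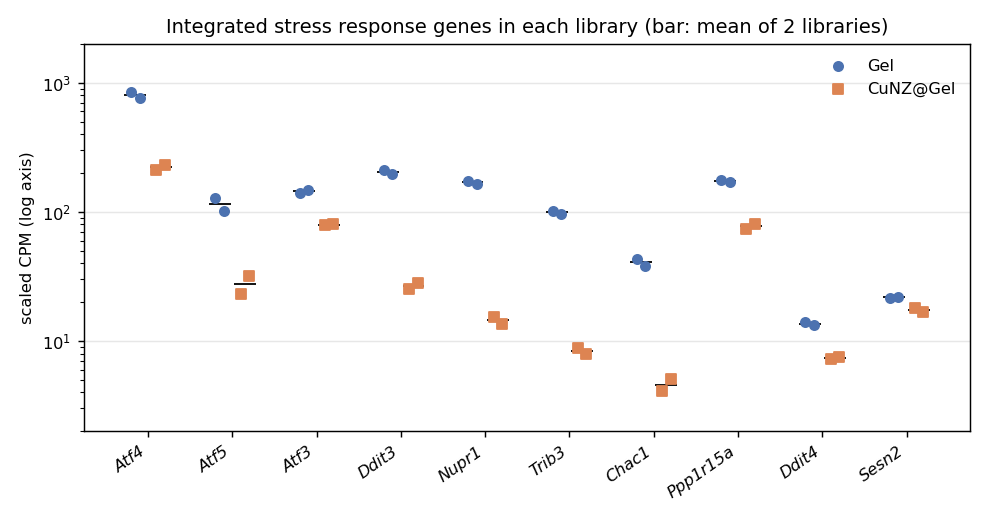
Scaled CPM of the 10 genes in each of the 4 libraries on a log axis; circles are Gel, squares are CuNZ@Gel, and each short bar is the mean of 2 libraries. Both squares lie below both circles for every gene, from a 1.25-fold gap of the means in Sesn2 to an 11.9-fold gap in Trib3.

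Atf4, the central transcription factor of the response, was the most abundant of the 10 transcripts. It stood at 846 and 763 scaled CPM in the Gel libraries and at 211 and 233 in the CuNZ@Gel libraries. The mean went from 805 ± 59.2 to 222 ± 16.2 (SD, n = 2 each), which is 3.62-fold lower and a log2 change of -1.85 (SE 0.066). Atf5, a related factor that is also translated under stress, stood at 129 and 102 in Gel and at 23.1 and 31.7 in CuNZ@Gel. Its libraries differed more from each other within a group than those of any other of the 10 genes (SD of log2 values 0.24 in Gel and 0.31 in CuNZ@Gel), yet the groups stayed apart by 4.22-fold. Atf3, a stress-induced factor that can repress or activate its targets, had 141 and 147 scaled CPM in Gel and 78.5 and 80.7 in CuNZ@Gel. That is 1.80-fold lower, a smaller gap than for Atf4 or Atf5.

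Ddit3 encodes CHOP, a C/EBP family factor linked to cell death under prolonged stress. Its level was 210 and 198 scaled CPM in Gel and 25.4 and 28.2 in CuNZ@Gel, which is 7.62-fold lower (log2 change -2.88, SE 0.077). Nupr1, a small chromatin-associated protein induced by many stresses, had 173 and 166 in Gel and 15.4 and 13.5 in CuNZ@Gel. The CuNZ@Gel mean was 8.52% of the Gel mean, and the log2 change of -3.47 (SE 0.085) was the 4th lowest of 11588 tested genes. In GENCODE vM21, Ddit3 overlaps Mars1 on the other strand, Atf5 overlaps Nup62 and Il4i1, and Ppp1r15a overlaps Tulp2. Whether the counting used strand is not given in the sources used here, so reads in those overlaps are of uncertain origin.

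Trib3, a pseudokinase that binds ATF4 and AKT and damps the response, was at 102 and 97.0 scaled CPM in Gel and at 8.76 and 7.93 in CuNZ@Gel. This was the widest gap of the 10 on the scaled CPM scale, at 11.9-fold. Chac1, which degrades glutathione, was at 42.9 and 38.4 in Gel and at 4.10 and 5.08 in CuNZ@Gel, an 8.86-fold gap. The Chac1 values in CuNZ@Gel rest on 65 and 80 reads, the fewest behind any value of the 10 genes. Nupr1, Trib3, Chac1 and Ddit3 were the 4th, 5th, 9th and 10th lowest of all tested genes by log2 change.

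Ppp1r15a encodes GADD34, which recruits a phosphatase to reverse eIF2 phosphorylation and so closes the feedback loop. It had 178 and 170 scaled CPM in Gel and 74.3 and 81.2 in CuNZ@Gel, which is 2.24-fold lower. Ddit4, which encodes the mTORC1 inhibitor REDD1, had 14.1 and 13.2 in Gel and 7.31 and 7.49 in CuNZ@Gel, which is 1.84-fold lower. Sesn2, a sestrin that senses leucine and also restrains mTORC1, had 21.7 and 22.0 in Gel and 18.0 and 16.9 in CuNZ@Gel. Its 1.25-fold gap (log2 change -0.31, SE 0.11) was the smallest of the 10. Scaled by total reads only, Sesn2 differed by -0.13, and after the correction for transcript length and GC content Ddit4 differed by -0.51 in place of -0.80.

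**Figure D3:**
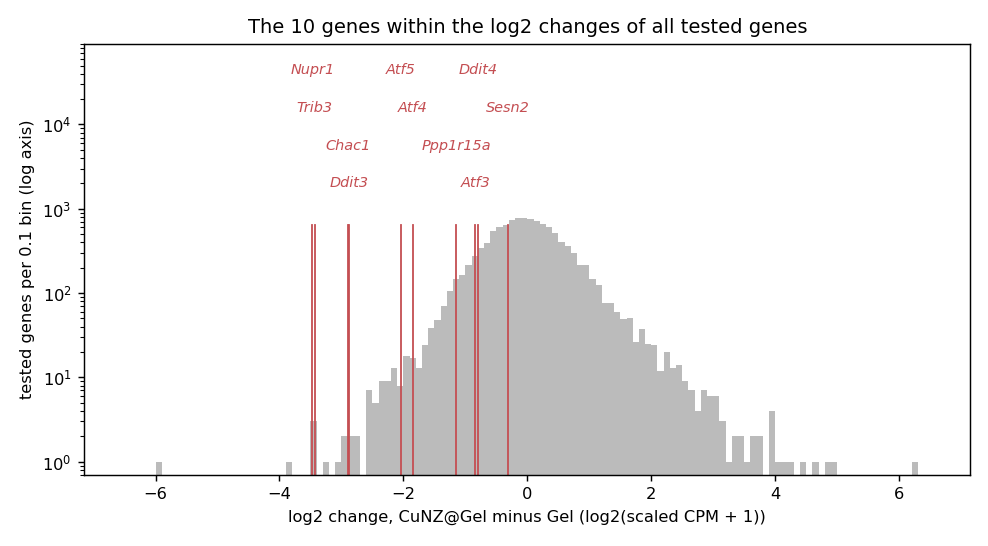
Distribution of the log2 change (CuNZ@Gel minus Gel) over 11588 tested genes, as genes per bin of 0.1 on a log axis, with a vertical line for each of the 10 stress response genes. The lines run from Nupr1 at -3.47 to Sesn2 at -0.31, while the median of all genes is -0.03.

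Within the changes of all tested genes, 6 of the 10 genes lay below the first percentile, at -1.68. These were Nupr1, Trib3, Chac1, Ddit3, Atf5 and Atf4. Ppp1r15a, at -1.15, lay between the first percentile and the 5th, at -1.07, and Atf3, Ddit4 and Sesn2 lay above the 5th. The median over the 10 genes was -1.95, and over all tested genes it was -0.03. These places describe genes picked for this contrast.

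The 10 genes did not keep their proportions to Atf4. Such a ratio is read across libraries for 1 gene at a time, since it is not divided by transcript length, and it does not depend on how libraries are scaled. Ddit3 reached 24.8% and 25.9% of the Atf4 level in the Gel libraries and 12.1% in both CuNZ@Gel libraries. Nupr1 went from 20.5% and 21.8% to 7.30% and 5.79%, and Trib3 from 12.1% and 12.7% to 4.16% and 3.40%. Chac1 went from 5.07% and 5.03% to 1.95% and 2.17%. For these 4 genes every CuNZ@Gel ratio lay below every Gel ratio, a pattern not counted over all tested genes. They had the lowest log2 changes of the 10 in the contrast that chose the genes, so nothing is read from this count.

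Ratios of 4 other genes lay higher in both CuNZ@Gel libraries than in both Gel libraries. Atf4 itself had the 89th lowest log2 change of 11588 tested genes, so nearly all tested genes had a higher log2 change than Atf4. How many of all tested genes had ratios to Atf4 that did not overlap between the groups was not counted. Atf3 went from 16.6% and 19.2% of Atf4 to 37.3% and 34.6%. Ppp1r15a went from 21.0% and 22.3% to 35.3% and 34.8%. Ddit4 and Sesn2, both mTORC1 inhibitors, went from 1.66% and 1.73% to 3.47% and 3.21%, and from 2.56% and 2.89% to 8.53% and 7.23%. Only Atf5 had overlapping ratios, at 15.3% and 13.3% in Gel and 11.0% and 13.6% in CuNZ@Gel. By this measure the genes fell into those lower by more than Atf4, those lower by less, and Atf5, whose ratios overlapped between the groups.

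**Figure D4:**
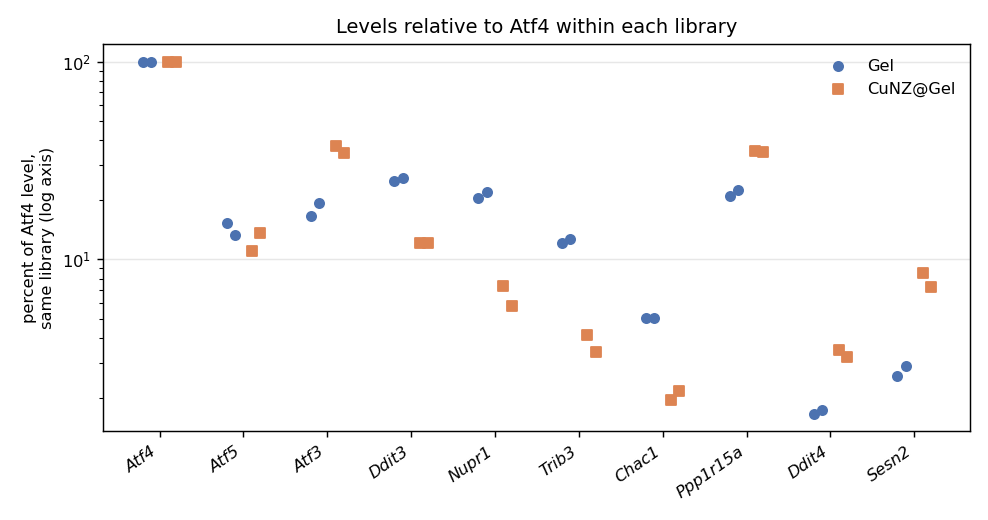
Level of each gene as a percent of the Atf4 level in the same library, on a log axis; circles are Gel, squares are CuNZ@Gel, and Atf4 itself is at 100 by construction. Squares lie below circles for Ddit3, Nupr1, Trib3 and Chac1, above them for Atf3, Ppp1r15a, Ddit4 and Sesn2, and among them for Atf5.

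The order of the transcripts by level per kilobase also differed between the groups. Levels were divided by the length of the longest coding transcript in GENCODE vM21, from 829 bases for Nupr1 to 3475 for Sesn2. In Gel the order began with Atf4 (466 ± 34.3 scaled CPM per kilobase, SD, n = 2), Ddit3 (229 ± 9.71) and Nupr1 (205 ± 6.05), whose ranges did not overlap. Atf3 (72.3), Atf5 (63.6), Ppp1r15a (61.9) and Trib3 (49.1) followed, and the Atf5 range of 56.1 to 71.2 overlapped those of Atf3 and Ppp1r15a. Chac1 (24.8), Ddit4 (7.77) and Sesn2 (6.29) came last. In CuNZ@Gel, Atf4 (129 ± 9.37) was followed by Atf3 (40.1 ± 0.776), ahead of Ddit3 (30.1) and Ppp1r15a (27.7), which overlapped each other. Nupr1 (17.4) and Atf5 (15.1) overlapped too, as did Ddit4 (4.22) and Trib3 (4.12), which both lay below Sesn2 (5.01). Chac1 (2.80) was last.

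Close relatives of these genes were examined next, as a list of 9, of which 5 were tested. With limma adjusted over all tested genes, 67.1% of tested genes were called in either direction. Of the 5 relatives 3 fell and 1 rose, and their median log2 change was -0.44. Trib1, a sister pseudokinase of Trib3, rose from 2.54 and 3.66 scaled CPM in Gel to 7.19 and 8.19 in CuNZ@Gel (log2 change 1.10, limma adjusted p = 1.16e-05). The level of Trib3 divided by that of Trib1 went from 40.2 and 26.5 to 1.22 and 0.969, and the Gel ratios rest on 35 and 47 Trib1 reads. Chac2, the constitutive relative of Chac1, had 7.75 and 9.42 in Gel and 10.8 and 11.0 in CuNZ@Gel and did not pass (log2 change 0.31, limma adjusted p = 0.0553). When scaling used total reads alone or relative log expression factors, or when changes were corrected for transcript length and GC content, 2 relatives were called raised in place of 1. Without Gel replicate 2 the number was also 2.

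Ppp1r15b, the constitutive partner of the same phosphatase as Ppp1r15a, fell from 134 and 150 to 90.9 and 81.7 (log2 change -0.72, limma adjusted p = 3.60e-08). Jdp2, a bZIP repressor related to Atf3, fell 2.00-fold (log2 change -0.99, limma adjusted p = 8.14e-09). Sesn1, a sestrin under p53, fell from 45.1 ± 3.09 to 33.0 ± 4.26 (SD, n = 2 each, log2 change -0.44, limma adjusted p = 0.000477), and by 0.26 when scaled by total reads alone. Trib2, Sesn3 and Ddit4l were listed at 0 in all 4 libraries, where 3 reads would be 0.189 to 0.234 scaled CPM. Nupr2, listed under its older symbol Nupr1l, was at 0.189 to 0.507 scaled CPM and was not tested.

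The upstream arm of the pathway was described by a list of 22 genes of the eIF2 kinases and the eIF2 machinery. Of these 9 fell and 5 rose, or 40.9% and 22.7%, against 34.8% and 32.2% of all tested genes, and the median was -0.11. Among the kinases, Eif2ak1, the heme-regulated HRI, rose from 42.6 and 39.3 to 66.8 and 60.1 scaled CPM (log2 change 0.62, limma adjusted p = 1.84e-06). Eif2ak2, the double-stranded RNA sensor PKR, rose from 26.9 and 29.3 to 44.7 and 38.5 (log2 change 0.55, limma adjusted p = 5.06e-05), or by 0.34 after the length and GC correction. Eif2ak3, the endoplasmic reticulum kinase PERK, did not pass, at 18.7 ± 1.64 and 20.9 ± 1.96 (limma adjusted p = 0.256). Eif2ak4, the amino acid sensor GCN2, was at 37.1 ± 0.187 and 37.4 ± 2.47 and did not pass either (limma adjusted p = 0.92), and its change ran from -0.19 to 0.20 over the other processing settings. Transcript levels of the kinases do not measure their activity.

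Eif2s2, the beta subunit of eIF2, fell most of this list, from 1321 and 1313 to 426 and 454 scaled CPM (log2 change -1.58, limma adjusted p = 2.78e-15). Eif2a, an alternative initiator tRNA carrier, fell by 1.15 and Eif2b2, a subunit of the eIF2 exchange factor, by 0.93 on the log2 scale. Dele1, the mitochondrial messenger that activates HRI, fell by 0.80, whereas Impact, an inhibitor of GCN2 activation, rose by 0.72. Gcn1, which GCN2 needs to sense stalled ribosomes, rose by 0.24 (limma adjusted p = 0.0167), and did not pass without the filter on low values, without Gel replicate 1 or without CuNZ@Gel replicate 1. Scaled by total reads only, 8 genes of this list rose and the median was 0.07, while 5036 of 11601 tested genes rose (median 0.15). Without Gel replicate 1 the list median was -0.14, and without CuNZ@Gel replicate 1 it was -0.13.

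Dimer partners of ATF4 and related factors came next. In the list of 25 bZIP partners and other CREB/ATF factors, 23 were tested, of which 12 fell and 7 rose (median -0.24). These are 52.2% lowered and 30.4% raised, against 34.8% and 32.2% of all tested genes. Scaled by total reads alone, 8 fell and 10 rose (median -0.06), while 2869 of 11601 tested genes fell and 5036 rose. Cebpg, a common dimer partner of ATF4, fell from 104 and 103 scaled CPM to 38.1 and 38.3 (log2 change -1.41, limma adjusted p = 9.23e-13). Cebpb, another partner, fell from 138 and 118 to 52.4 and 64.0 (log2 change -1.12, limma adjusted p = 5.65e-10). Nfe2l1 and Junb fell by 0.65 and 0.79 on the log2 scale. Fosl1, an AP-1 subunit, rose from 1.23 and 1.01 to 29.7 and 32.2 (log2 change 3.91, limma adjusted p = 3.95e-15). The CREB/ATF family genes Crem, Atf7 and Atf2 rose by 0.74, 0.59 and 0.43. After the length and GC correction Atf7 and Atf2 stood at 0.24 and 0.22, Cebpb at -0.60 and Junb at -0.41, all still past the threshold.

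Genes of amino acid supply and tRNA charging, which ATF4 is known to drive, formed a list of 36, all found in the files, 10 of them under older symbols. Of 35 tested, 34 fell and 1 rose, or 97.1% lowered against 34.8% of all tested genes, with a median log2 change of -1.29. Results of many of these genes were known when the list was written, so its direction is not independent evidence. Pck2, the mitochondrial phosphoenolpyruvate carboxykinase, had 182 and 192 scaled CPM in Gel and 20.7 and 22.0 in CuNZ@Gel (log2 change -3.07, limma adjusted p = 4.44e-18). Asns, asparagine synthetase, had 339 and 345 in Gel and 74.3 and 72.4 in CuNZ@Gel (log2 change -2.21). Shmt2, of mitochondrial one-carbon metabolism, and Slc7a5, the LAT1 amino acid carrier, fell 4.39-fold and 5.12-fold.

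The exception was Slc7a11, the cystine importer, which is also a target of the oxidant-responsive factor NRF2. It rose from 71.0 and 77.2 to 180 and 176 scaled CPM (log2 change 1.25, limma adjusted p = 1.41e-12), and in the other processing settings its change was 0.76 to 1.44. The C/EBP-ATF composite searched above had a match in 11 of the 28 genes of this list with a promoter window. Slc7a11, with matches 66 and 47 bases before its start, was among them and was the only one that rose. Asns, Pck2 and Pycr1 also held a match and fell, as did the rest of the genes with a match. Of all genes called lowered, 3.51% of those with a window held the match, against 2.50% of those called raised and 2.48% of those not called. The lowered group includes genes that were chosen with their change known, so these shares are not independent evidence.

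Further targets of ATF4 or CHOP, outside amino acid supply, moved in both directions. Of 26 listed, 23 were tested, of which 13 fell and 6 rose (median -0.20). These are 56.5% lowered and 26.1% raised, against 34.8% and 32.2% of all tested genes. Eif4ebp1, a repressor of cap-dependent translation, fell from 233 and 235 to 113 and 119 scaled CPM (log2 change -1.01, limma adjusted p = 1.12e-11). Bbc3, which encodes the death protein PUMA, fell 3.03-fold (log2 change -1.52, limma adjusted p = 2.69e-10), and the mitochondrial protease and chaperone genes Lonp1 and Hspa9 fell by 0.80 and 0.84 on the log2 scale. Tnfrsf10b, the death receptor DR5 and a known CHOP target, rose from 0.652 and 1.48 to 7.50 and 6.92 (log2 change 2.02, limma adjusted p = 1.49e-08). Pmaip1, which encodes NOXA, rose 2.01-fold, and Bcl2l11, which encodes BIM, rose by 0.70. Nbr1, an autophagy receptor, rose by 0.49, or by 0.28 after the length and GC correction. Bbc3, Tnfrsf10b and Pmaip1 are also known p53 targets.

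The other arms of the unfolded protein response, under ATF6 and XBP1, were described by 23 tested genes, of which 9 rose and 7 fell (median 0.10). These are 39.1% raised and 30.4% lowered, near the 32.2% and 34.8% of all tested genes. Scaled by total reads alone, 13 rose and 6 fell, while 5036 of 11601 tested genes rose and 2869 fell. Calr, a lectin chaperone, rose from 571 and 554 to 994 and 1010 scaled CPM (log2 change 0.83, limma adjusted p = 5.84e-11). Edem1, which steers misfolded glycoproteins to degradation, rose by 0.73, and the chaperone genes Pdia4 and Hsp90b1 by 0.52 and 0.43. Herpud1, a degradation factor that answers to ATF4 as well as ATF6, fell from 89.1 and 98.7 to 29.3 and 27.4 (log2 change -1.69, limma adjusted p = 2.93e-13). Xbp1 itself fell by 0.77 and the translocon genes Sec61b and Sec61a1 by 0.92 and 0.64. After the length and GC correction Edem1 stood at 0.44 and Sec61b at -0.56. The endoplasmic reticulum stress element matched 8 of the 20 genes of this list with a window and none of the 10 stress response genes.

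**Figure D5:**
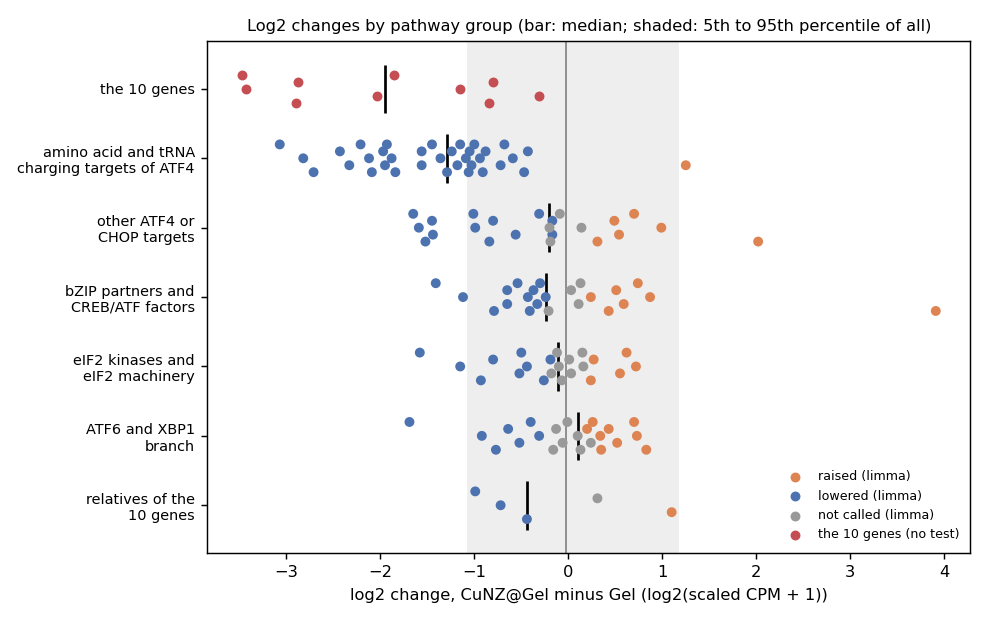
Log2 change (CuNZ@Gel minus Gel) of each tested gene by pathway group; colours give the limma call, black bars the group medians, the grey line the median of all tested genes and the shaded band their 5th to 95th percentile (-1.07 to 1.17). The targets in amino acid supply lie left of 0 except Slc7a11, while the ATF6 and XBP1 branch and the eIF2 machinery spread on both sides.

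The non-member genes whose profile was nearest to the 10 genes were found by Euclidean distance over the 4 libraries. The distance was taken from the median of the 10 gene-centred log2 profiles, which was 1.10 and 0.85 in Gel and -1.12 and -0.83 in CuNZ@Gel. The 5 nearest of 11578 genes were S1pr1 (distance 0.114), Aarsd1 (0.137), Gm4285 (0.142), Phgdh (0.153) and H2bc9 (0.154), and the next lay at 0.159. Phgdh, the first enzyme of serine synthesis, was at 426 and 408 scaled CPM in Gel and at 104 and 122 in CuNZ@Gel. S1pr1, a sphingosine 1-phosphate receptor, was at 22.6 and 20.9 in Gel and at 4.60 and 5.65 in CuNZ@Gel. H2bc9 is a histone gene with close paralogs among which counting may split reads, so its level is uncertain. In CuNZ@Gel, H2bc9 rested on 4 and 8 reads and Gm4285 on 20 and 30. Because 1 is added before the logarithm, their log2 changes of -1.8 and -1.91 understate gaps of 10.0-fold and 5.45-fold. Their nearness to the profile rests partly on that added 1.

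Library totals recovered from the value steps were 13707000 to 14868000 reads. Of 10 macrophage markers, 9 were tested, and their summed level over all 10 was 5665 and 5833 scaled CPM in Gel and 9164 and 8924 in CuNZ@Gel. Lyz2, a lysozyme, went from a mean of 3079 to 5888 and made up most of that difference. Of the 9 markers 6 rose, Cd68 (1003 to 857) and Fcgr1 (70.5 to 39.6) fell, and Spi1 did not pass. These are 66.7% raised and 22.2% lowered, against 32.2% and 34.8% of all tested genes. Cd68 did not pass when scaled by total reads alone or after the length and GC correction. Of 24 markers of other cell types, 22 stayed below 1 scaled CPM in every library, and Cd3e, Ncr1, Klrb1c, Kit and Cpa3 were at 0 throughout. Their summed level was 1.38 and 2.10 in Gel and 5.55 and 4.38 in CuNZ@Gel. Pecam1, an endothelial and leukocyte adhesion molecule, made up part of it and was the 1 marker that was tested. It rose (log2 change 1.37), on 1 and 1 reads in Gel and 35 and 22 in CuNZ@Gel. With limma-voom on the recovered reads its log2 change was 3.99. The part of these shifts in the results was not tested. Across 10898 tested genes with a transcript in the annotation, longer transcripts had higher log2 changes (Pearson r = 0.297 with log2 length) and GC-rich ones lower changes (r = -0.185). Genes are not independent replicates. After correction for both, the 10 genes had a median of -1.65 and each stayed below 0.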

How the data were processed

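RNA was extracted from RAW264.7 cells and made into CORALL libraries, per the labels' protocols. The authors deposited 1 log2 value per gene symbol and library. The submitters' processing notes name GATK, Salmon, STAR and fastp, and the build GRCm39. Tool versions and roles, the annotation, strand use and the normalization are not given in the sources used. Each value was found to be log2(x + 1), where x is CPM divided by 1 factor per library (0.936 to 1.07). The step of low values gave the reads behind them: 93.0% to 93.7% of values up to 1 were whole reads within 0.02.

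Groups came from sample titles. The 11588 genes that reached 1 scaled CPM in 2 or more libraries entered limma 3.58.1 (R 4.3.3) on the log2 values as deposited (trend on the mean, group only, Benjamini-Hochberg over these genes, threshold 0.05). A check on simulated data was made first. Those data held far fewer changed genes than were called here, so the check does not cover such a contrast. Because 1 is added before the logarithm, changes of low genes are understated. Levels are means ± SD.

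The 10 genes and all lists were chosen with earlier results of these data known. Named genes were the 10, their measured relatives, the 4 eIF2 kinases, up to 4 raised and 4 lowered genes per pathway list by smallest p, and the 5 nearest profiles. Alternatives were other scalings, filters, a pseudocount of 0.1, limma-voom on the recovered reads, a minimum fold of 1.5, each library left out, the replicate number as a block, and a length and GC correction. A crossed block was added after the data were seen.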

Additional observations from a re-analysis of the deposited data

How the results depend on the processing

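Each of the 130 recomputed log2 changes of the 10 genes (13 alternatives per gene) stayed below 0, and 23 of them moved by more than the replicate spread. The median over the 10 genes was -1.65 after the length and GC correction and -2.10 to -1.80 with 1 library left out. Scaling by total reads alone shifted the all-gene median by 0.18 (log2) and gave 5036 raised and 2869 lowered genes, so that raised genes were 63.7% of the calls, against 48.1%.

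Against a minimum fold of 1.5, 1015 of 11588 tested genes were raised and 940 lowered. Of the 22 tested genes of the eIF2 list 0 were raised and 3 lowered. Of the 23 tested genes of the bZIP list 1 was raised and 3 lowered, and likewise of the 23 of the ATF6 and XBP1 list. Of the 23 tested other ATF4 or CHOP targets 2 were raised and 9 lowered, and of the 5 tested relatives 1 and 1. Genes of the eIF2 list called raised were 8 with total reads only, where 5036 of 11601 tested genes were raised. Without a filter they were 3, where 3550 of 19581 tested genes were raised. The relatives called raised were 2 with total reads only, with relative log expression factors, with the length and GC correction and with the crossed block, and 1 to 2 with 1 library left out. Of the 33 to 36 tested targets in amino acid supply, 29 to 34 were lowered and 1 was raised in every alternative with all 4 libraries. Over all tested genes 940 to 4340 were lowered and 1015 to 5036 raised in those alternatives.

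The deviations of same-numbered libraries had a correlation of -0.116 over 11588 genes, and no source says that the numbers pair them. With the replicate number as a block, 3589 genes were raised and 3900 lowered, and the median over the 10 genes stayed at -1.95. With the crossed block, chosen after seeing the data, the counts were 4030 and 4340. Libraries of 13707000 to 14868000 reads put 3 reads at 0.189 to 0.234 scaled CPM, so that relatives listed at 0 are limited only to that level, for counting error alone.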
